A study of Gallus gallus with 3 samples.

Results

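The respiratory chain of the mitochondrial inner membrane is described here through its nuclear-encoded genes in cultured chicken primordial germ cells (PGCs) and embryonic stem cells (ESCs). Members were chosen by gene symbol alone, as the symbols for subunits of complexes I to V, for cytochrome c and for the assembly factors that share the NDUFAF, SDHAF and COX prefixes, outside the mitochondrial genome and chromosome W. This gave 82 genes of the 16030 in the table with symbols and of the 19152 in the count table, and all 82 had at least 10 counts in 1 or more libraries. They were 31 subunits of complex I, 2 of complex II, 8 of complex III, cytochrome c, 9 subunits of complex IV, 13 of complex V, 17 assembly factors and ATP5S. Rows without a symbol are not members, so further subunits were not analysed here.

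Total RNA sequencing was analysed in 2 PGC libraries (replicates 2 and 3) and 1 ESC library (replicate 2). The cPGCs and ESCs are cultured chicken cells, which the study used as the in vitro counterparts of early germ and somatic cells. The paper describes more biological replicates of both cell types than were analysed here. All 3 libraries came from total RNA. The paper names several sequencing providers without saying which one handled each library. Strain, sex, passage and whether the PGC replicates came from separate lines are not given in the labels. The p-values therefore measure only the spread between the 2 PGC libraries, moderated across genes, and the 1 ESC library adds none.

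Complexes I and II pass electrons from NADH and succinate to coenzyme Q, complex III passes them on to cytochrome c, and complex IV hands them to oxygen. Complexes I, III and IV pump protons while doing so, and complex V, the ATP synthase, uses the proton gradient to make ATP. Complexes I, III, IV and V mix subunits of both genomes, and complex II is wholly nuclear-encoded. Assembly factors insert cofactors and join subunits without staying in the finished enzyme.

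Libraries held 19754278, 20401551 and 20568106 counts assigned to genes. The labels were checked against marker genes. All 8 germ cell markers were higher in PGCs, with summed levels of 4823 and 4748 CPM against 91.1 CPM in the ESC library, where TDRD5 and MOV10L1 had 0 counts, which allows up to 3 counts. The 6 pluripotency markers summed to 683 and 1280 CPM in PGCs and 1966 CPM in ESCs, and 2 of them (SALL4 and LIN28A) were lower in PGCs by edgeR, while DESeq2 called neither. Of 12 fibroblast and mesenchyme markers 11 were matched, with summed levels of 674 and 847 CPM in PGCs and 451 CPM in ESCs, and 2 of the 10 tested were higher and 7 lower in PGCs by edgeR, against 1 and 7 by DESeq2. Erythroid markers (2 of 9 matched) summed to at most 47.1 CPM and muscle markers (7 of 9 matched) to at most 28.4 CPM in any library. The part of other cell types in the results was not tested.

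Transcripts of the respiratory chain were on balance lower in PGCs than in ESCs. By edgeR's quasi-likelihood test on counts, with Benjamini-Hochberg adjusted p under 0.05 over the 14489 genes tested, 41 of the 82 members were lower in PGCs and 1 was higher. Over all genes tested 20.6% were lower and 21.2% higher. The other 40 members had no call. An unadjusted edgeR p under 0.05 was seen for 54 of the 82 members and for 7466 of the 14489 genes tested. The single ESC library is assumed to vary like the PGC libraries, so that the test rests on 1 residual degree of freedom per gene, moderated across genes. In such bulk samples, fewer cells of a type and less RNA per cell cannot be told apart.

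Levels are given as counts scaled to library size (CPM) by the trimmed mean of M-values (TMM), and differences as the log2 of PGC to ESC. Where a gene is said to change by a value, that is its fitted log2 fold change. The SE beside it was worked back from the edgeR test statistic, so it rests on the same moderated spread. Values set in a row without a name are those of PGC replicate 2, PGC replicate 3 and ESC, in that order. Both PGC libraries lay below the ESC library for 70 members and above it for 6, while 44.1% of all genes tested had both below. A decrease of 2-fold or more in both PGC libraries was seen for 21 members (15.8% of all genes tested), and an increase of that size for 1 member (21.6%). The median log2 ratio of the members was −0.67 for PGC replicate 2 and −0.76 for replicate 3, and −0.71 for the mean of both, beside 0.03 for all genes tested.

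The call count depended on the scaling. With total counts in place of TMM, the median of all genes moved up by 0.31 and 26 members were lower and 3 higher. Under that scaling 14.2% of all genes tested were lower and 28.7% higher. Of the calls over all genes, 50.7% were in the higher direction with TMM and 66.9% with total counts. With TPM, which scale counts by gene length, the median of all genes moved up by 0.46, and 3 members were 2-fold or more lower in both. Both PGC libraries lay below the ESC library for 58 members with total counts and for 45 with TPM. The shares of all genes are not given for these counts or for the 2-fold count with TPM, so they have no background. Relative to the median of all genes the members stood at −0.74, −0.73 and −0.73 under the 3 scalings. A scaling moves all genes of a library nearly alike, so these values had to be close and are no check of the result.

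**Figure D1:**
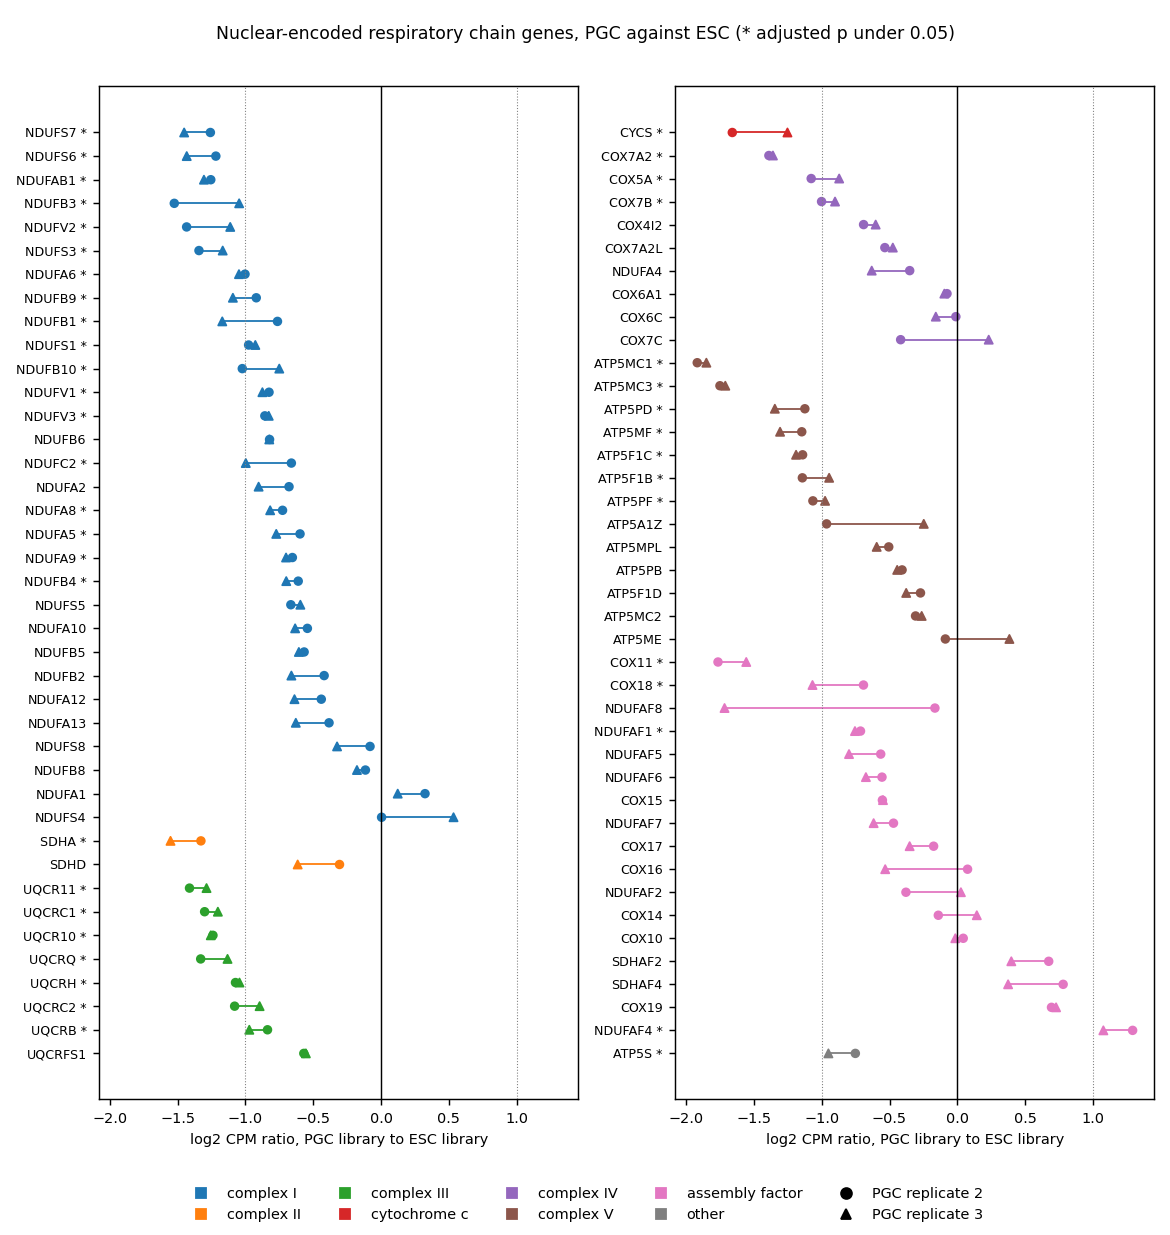
Log2 CPM ratios of the PGC libraries to ESC for 81 of the 82 respiratory chain genes, grouped by complex. Circles are PGC replicate 2 and triangles PGC replicate 3, joined by a line. Dotted lines mark 2-fold, and an asterisk an edgeR adjusted p under 0.05. Both symbols lie left of 0 for 69 of the genes drawn, and NDUFAF4 is the gene with an asterisk on the right. The assembly factors straddle 0. Their median turns positive under total counts and TPM, where the median of all genes is 0.34 and 0.49.

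The members' share of counts was 0.776% for PGC replicate 2 and 0.745% for replicate 3, with 95% Wilson intervals of 0.773 to 0.780 and 0.741 to 0.748. For ESCs the share was 1.07%, from 1.07 to 1.08. The intervals cover counting error only. Their summed level was 6848 and 7291 CPM in PGCs against 12420 CPM in ESCs, and the PGC libraries lay closer to each other than either lay to the ESC library. Per gene length, the median level of a member was 150.5 and 116 TPM in PGCs and 164 TPM in ESCs.

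Complex I oxidises NADH and holds the most members. Of its 31 members, 18 (58.1%) were lower in PGCs, beside 20.6% of all genes tested, with a median log2 ratio of −0.79. An unadjusted edgeR p under 0.05 was seen for 24 of the 31, and for 7466 of the 14489 genes tested. DESeq2 called 12 of the 31 lower, and edgeR with total counts called 7. Of all genes tested, DESeq2 called 15.7% lower and edgeR with total counts 14.2%. The flavin and the iron-sulphur clusters of complex I are held by some of its core subunits.

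NDUFS7, a core subunit that holds the last iron-sulphur cluster before coenzyme Q, showed the largest fitted decrease in complex I. NDUFS7 (ENSGALG00000009703, chromosome 28, 3192339 to 3195224 of galGal5) had 25.1 and 21.9 CPM in PGC replicates 2 and 3 and 60.2 CPM in ESC, from 562, 457 and 1069 counts. Both PGC libraries were below the ESC library, which stood at 2.56 times the PGC mean. Its log2 fold change was −1.36 ± 0.24 (SE, edgeR adjusted p = 0.0020). Among the other core subunits, NDUFV2 and NDUFS3 had 66.3, 82.9 and 179 CPM and 66.3, 74.9 and 168 CPM in PGC replicate 2, PGC replicate 3 and ESC. NDUFV2, an iron-sulphur subunit next to the NADH site, changed by −1.27 ± 0.24 (SE, edgeR adjusted p = 0.0026). NDUFS3, which links the NADH side of the arm to the coenzyme Q side, changed by −1.25 ± 0.23 (SE, edgeR adjusted p = 0.0021).

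NDUFS1, the largest core subunit, and NDUFV1, which binds the flavin that takes electrons from NADH, were lower by less than 2-fold. NDUFS1 had 227, 235 and 447 CPM and a log2 fold change of −0.95 ± 0.25 (SE, edgeR adjusted p = 0.013). NDUFV1 had 64.8, 62.6 and 115 CPM and a log2 fold change of −0.85 ± 0.23 (SE, edgeR adjusted p = 0.014), which with total counts became −0.53 with adjusted p = 0.12. NDUFS8, another iron-sulphur subunit, had 57.6, 48.6 and 60.9 CPM and no call (log2 fold change −0.20 ± 0.25, SE, edgeR adjusted p = 0.54). Both PGC libraries were below the ESC library for NDUFS1, NDUFV1 and NDUFS8.

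The accessory subunits stabilise the core without carrying electrons. NDUFS6, near the NADH-oxidising end, had 17.7 and 15.3 CPM in PGC replicates 2 and 3 and 41.4 CPM in ESC, with a log2 fold change of −1.33 ± 0.26 (SE, edgeR adjusted p = 0.0033). NDUFB3, in the membrane arm, had 14.5 and 20.3 CPM in PGC replicates 2 and 3 and 41.9 CPM in ESC, with a log2 fold change of −1.27 ± 0.28 (SE, edgeR adjusted p = 0.0061). Both PGC libraries lay below the ESC library for NDUFS6 and NDUFB3, as they did for 44.1% of all genes tested. NDUFAB1, the mitochondrial acyl carrier protein, which also serves fatty acid synthesis, had 14.9 and 14.4 CPM in PGC replicates 2 and 3 and 35.7 CPM in ESC and a log2 fold change of −1.29 ± 0.27 (SE, edgeR adjusted p = 0.0041). Its value is uncertain, since 159 bases of its exons overlap another gene on the same strand. NDUFA6 was 2-fold or more lower in both as well, with a log2 fold change of −1.03 ± 0.29 (SE, edgeR adjusted p = 0.018).

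By position, 10 of 15 members of the matrix arm (66.7%) and 7 of 15 of the membrane arm (46.7%) were lower, beside 20.6% of all genes tested. Their median log2 ratios were −0.84 and −0.66. The difference between the arms was not tested. NDUFB1, NDUFB9, NDUFB10, NDUFV3, NDUFC2, NDUFA5, NDUFA8, NDUFA9 and NDUFB4 made up the other lower genes, with fitted changes from −1.01 to −0.66. DESeq2 ended the calls of NDUFA5, NDUFA6, NDUFA9, NDUFB4, NDUFC2 and NDUFV3, and total counts ended these and those of NDUFA8, NDUFB1, NDUFB9, NDUFB10 and NDUFV1. NDUFB1 shares 25 exon bases with CPSF2 on the other strand. NDUFB5, the complex I member with the highest mean level per length, had 386, 325 and 385 TPM and no call (log2 fold change −0.59 ± 0.23, SE, edgeR adjusted p = 0.061). NDUFA1 and NDUFS4 had both PGC libraries above the ESC library, at 40.2, 34.9 and 32.1 CPM and 66.9, 96.7 and 66.8 CPM, and neither had a call (edgeR adjusted p = 0.49 and 0.41).

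Complex II links the tricarboxylic acid cycle to the chain, and 2 of its subunits were among the members. SDHA (ENSGALG00000013167, chromosome 2, 85941188 to 85957098), the flavoprotein that oxidises succinate, had 84.8 and 72.6 CPM in PGC replicates 2 and 3 and 213 CPM in ESC. Both PGC libraries were below the ESC library, which was 2.71 times the PGC mean, with a log2 fold change of −1.44 ± 0.23 (SE, edgeR adjusted p = 0.0011). SDHD, a membrane anchor that binds coenzyme Q, had 94.7, 76.5 and 117 CPM, again with both PGC libraries below, and no call (log2 fold change −0.45 ± 0.24, SE, edgeR adjusted p = 0.16).

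Complex III was the complex with the largest share of lower members among complexes with more than 2 members, at 7 of 8, with a median log2 ratio of −1.15. Of all genes tested 20.6% were lower. DESeq2 also called 7 lower and edgeR with total counts called 6, beside 15.7% and 14.2% of all genes tested. UQCR11 (ENSGALG00000001096, chromosome 28, 2447968 to 2449864), a small subunit, had 32.5 and 35.5 CPM in PGC replicates 2 and 3 and 86.7 CPM in ESC and a log2 fold change of −1.35 ± 0.23 (SE, edgeR adjusted p = 0.0016). The core proteins UQCRC1 and UQCRC2, which face the matrix, had 173, 185 and 427 CPM and 159, 180.4 and 336 CPM. UQCRC1 changed by −1.25 ± 0.24 (SE, edgeR adjusted p = 0.0030) and UQCRC2 by −0.99 ± 0.24 (SE, edgeR adjusted p = 0.0099). For both genes the PGC libraries lay below the ESC library, as for 44.1% of all genes tested.

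The small subunits UQCR10, UQCRQ and UQCRB had log2 fold changes of −1.25, −1.23 and −0.90, all called. UQCRB lost its call with total counts. The gene named UQCRH in the files, after the acidic hinge protein at the cytochrome c side, carries the RefSeq gene number of UQCRHL. RefSeq also lists the name UQCRH as a synonym of UQCRHL. Which of the pair this gene is was not checked by sequence. It had 123, 126 and 259 CPM and the highest mean level per length in complex III, at 504, 444 and 713 TPM. It changed by −1.06 ± 0.23 (SE, edgeR adjusted p = 0.0052). UQCRFS1, the Rieske iron-sulphur protein, was the exception, with 135, 136 and 200.5 CPM and a log2 fold change of −0.56 ± 0.23 (SE, edgeR adjusted p = 0.074), although both PGC libraries lay below the ESC library.

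Cytochrome c, the soluble carrier between complexes III and IV, which also triggers caspase activation when released, was among the members with the largest decrease. CYCS (ENSGALG00000011020, chromosome 2, 31819123 to 31821634) had 190.3 and 252 CPM in PGC replicates 2 and 3 and 601 CPM in ESC, from 4263, 5258 and 10682 counts. The ESC library was 2.72 times the PGC mean, and PGC replicate 2 was the lowest of the 3. The log2 fold change was −1.44 ± 0.28 (SE, edgeR adjusted p = 0.0027).

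Complex IV is cytochrome c oxidase, which reduces oxygen to water. Of its 9 nuclear members 3 (33.3%) were lower, beside 20.6% of all genes tested, and the median log2 ratio was −0.51. An unadjusted edgeR p under 0.05 was seen for 4 of the 9, and for 7466 of the 14489 genes tested. COX7A2 (ENSGALG00000015906, chromosome 3, 81074319 to 81077654), the form of subunit VIIa found in most mammalian tissues, had 99.6 and 102 CPM in PGC replicates 2 and 3 and 261 CPM in ESC. Both PGC libraries were below the ESC library, with a log2 fold change of −1.38 ± 0.23 (SE, edgeR adjusted p = 0.0012). COX7A2L, a relative that joins complexes III and IV into supercomplexes in mouse, had 96.8, 101 and 140.2 CPM and no call (log2 fold change −0.51 ± 0.23, SE, edgeR adjusted p = 0.098). COX5A, a matrix-side subunit, and COX7B, a small membrane subunit, had 68.0, 78.5 and 144 CPM and 108, 115 and 216 CPM. Both were lower, with log2 fold changes of −0.97 ± 0.23 (SE, edgeR adjusted p = 0.0082) and −0.95 ± 0.23 (SE, edgeR adjusted p = 0.0085).

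The gene named COX4I2 in the files carries the RefSeq gene number of COX4I1, and RefSeq lists the name COX4I2 as a synonym of COX4I1. Which form of subunit IV this gene encodes was not checked by sequence. It had the highest mean level per length of complex IV, at 751, 691 and 816 TPM, and 268, 285 and 432 CPM, with no call (log2 fold change −0.65 ± 0.26, SE, edgeR adjusted p = 0.067). NDUFA4, first described in complex I and now placed in complex IV, had 147, 121 and 187 CPM and no call (log2 fold change −0.48 ± 0.24, SE, edgeR adjusted p = 0.13). COX6A1, COX6C and COX7C had no call, with fitted changes of −0.09, −0.08 and −0.06 and adjusted p from 0.79 to 0.89 by edgeR. For COX7C, PGC replicate 3 was above and PGC replicate 2 below the ESC library, at 158, 247 and 211 CPM.

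Complex V showed the largest single decreases. Of 13 members 7 (53.8%) were lower, beside 20.6% of all genes tested, with a median log2 ratio of −1.02. The same number was called lower by DESeq2 and by edgeR with total counts, beside 15.7% and 14.2% of all genes tested. The c subunit forms the ring that turns as protons pass, and in mammals it is made from 3 genes that encode the same mature protein with different targeting peptides. ATP5MC1 (ENSGALG00000001330, chromosome 27, 3706954 to 3709485) had 79.6 and 83.4 CPM in PGC replicates 2 and 3 and 301 CPM in ESC, from 1783, 1738 and 5347 counts. The ESC level was 3.69 times the PGC mean and the log2 fold change was −1.88 ± 0.23 (SE, edgeR adjusted p = 0.00021), the largest decrease of all 82 members. ATP5MC3 (ENSGALG00000009286, chromosome 7, 16713222 to 16716389) had 106 and 109 CPM in PGC replicates 2 and 3 and 357 CPM in ESC. It changed by −1.73 ± 0.23 (SE, edgeR adjusted p = 0.00039), with the ESC level 3.32 times the PGC mean.

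ATP5MC2 (ENSGALG00000030086, chromosome 33, 914337 to 916263), the other c subunit gene, had 60.1 and 62.1 CPM in PGC replicates 2 and 3 and 74.5 CPM in ESC, from 1347, 1293 and 1323 counts, and no call (log2 fold change −0.29 ± 0.23, SE, edgeR adjusted p = 0.34). Summed per gene length over the 3 genes, ATP5MC2 gave 31.0%, 30.9% and 13.6% of c subunit TPM in PGC replicates 2 and 3 and ESC. ATP5MC1 gave 28.8%, 29.2% and 38.6%, and ATP5MC3 gave 40.2%, 39.9% and 47.8%. These shares are taken within a library and do not depend on its scaling. The PGC libraries differed by less than 1 percentage point in each share, and the difference between the genes was not tested.

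**Figure D2:**
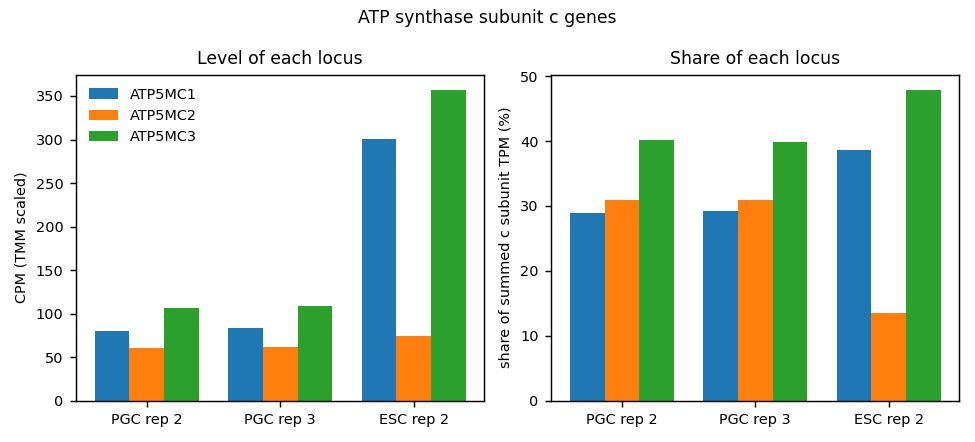
Level (left, TMM-scaled CPM) and share of summed TPM (right, percent) of the 3 ATP synthase c subunit genes in each library. Each bar is 1 library. ATP5MC1 and ATP5MC3 stand at 301 and 357 CPM in the ESC library and between 79.6 and 109 CPM in the PGC libraries, while ATP5MC2 stands at 60.1, 62.1 and 74.5 CPM.

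The catalytic head of complex V is built from subunits alpha and beta around the central stalk. ATP5F1B, the catalytic beta subunit, had 324 and 371 CPM in PGC replicates 2 and 3 and 715 CPM in ESC and a log2 fold change of −1.04 ± 0.28 (SE, edgeR adjusted p = 0.014). ATP5F1C, the gamma subunit of the rotating stalk, had 244 and 236 CPM in PGC replicates 2 and 3 and 539 CPM in ESC and a log2 fold change of −1.16 ± 0.25 (SE, edgeR adjusted p = 0.0054). The PGC libraries lay below the ESC library for ATP5F1B and ATP5F1C, as for 44.1% of all genes tested. ATP5F1D, the delta subunit of the same stalk, had 34.0, 31.6 and 41.0 CPM and no call (log2 fold change −0.32 ± 0.25, SE, edgeR adjusted p = 0.31).

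ATP5A1Z (ENSGALG00000037880, chromosome Z, 2151465 to 2159381), the alpha subunit gene on chromosome Z, had 453 and 744 CPM in PGC replicates 2 and 3 and 884 CPM in ESC, from 10145, 15510 and 15697 counts. PGC replicate 2 lay furthest below the ESC library, and the gene had no call (log2 fold change −0.56 ± 0.35, SE, edgeR adjusted p = 0.22). A second alpha subunit gene, unnamed in the files and on chromosome W (ENSGALG00000043758, 1442287 to 1466769), which is outside the members, had 2587, 217 and 1 counts. PGC replicate 2, the library lowest in the Z gene, was the highest in the W gene. Summed, the alpha genes stood at 568, 755 and 884 CPM. How reads were divided between such similar genes is not given in the sources used here, so both values are uncertain.

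In the peripheral stalk, which holds the head still, ATP5PD and ATP5PF were lower, with 63.4, 54.4 and 138 CPM and 113, 120.5 and 237 CPM. They changed by −1.23 ± 0.23 (SE, edgeR adjusted p = 0.0025) and −1.02 ± 0.23 (SE, edgeR adjusted p = 0.0062), and 183 exon bases of ATP5PF overlap JAM2 on the other strand. ATP5PB, the b subunit of that stalk, had 237, 231 and 314 CPM and no call (log2 fold change −0.43 ± 0.25, SE, edgeR adjusted p = 0.19). Of the small membrane subunits, ATP5MF had 49.3, 44.2 and 109 CPM and changed by −1.23 ± 0.23 (SE, edgeR adjusted p = 0.0025). ATP5MPL and ATP5ME had no call, with fitted changes of −0.55 and 0.17. ATP5S, counted apart from the subunits, had 15.3, 13.3 and 25.8 CPM and a log2 fold change of −0.85 ± 0.29 (SE, edgeR adjusted p = 0.038), a call that total counts, DESeq2 and a stricter filter (at least 10 counts in all 3 libraries) each ended.

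Of the 17 assembly factors among the members, 3 (17.6%) were lower and 1 (5.88%) higher, beside 20.6% and 21.2% of all genes tested. Their median log2 ratio was −0.26. Total counts turned it to 0.053 and TPM to 0.20, where the median of all genes was 0.34 and 0.49. By comparison, 37 of the 64 subunits and cytochrome c were lower, with a median of −0.84. The difference between the sets was not tested.

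NDUFAF4 (ENSGALG00000019921, chromosome 3, 72911668 to 72915627), which helps to assemble complex I, was the member that was higher in PGCs. It had 93.8 and 80.7 CPM in PGC replicates 2 and 3 and 38.2 CPM in ESC, from 2100, 1682 and 679 counts. Both PGC libraries were at least 2-fold above the ESC level, with a log2 fold change of 1.19 ± 0.26 (SE, edgeR adjusted p = 0.0051). Among the other complex I factors, NDUFAF1 was lower, at 101, 98.0 and 166 CPM and a log2 fold change of −0.73 ± 0.23 (SE, edgeR adjusted p = 0.026), and lost its call with total counts. NDUFAF2, NDUFAF5, NDUFAF6, NDUFAF7 and NDUFAF8 had no call. NDUFAF8 rested on 20, 5 and 18 counts, and a change in it was not detectable at this depth.

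COX11 (ENSGALG00000027190, chromosome 18, 5908066 to 5910865), which delivers copper to the catalytic subunit of complex IV, was the assembly factor with the largest decrease. It had 18.3 and 21.2 CPM in PGC replicates 2 and 3 and 62.4 CPM in ESC, from 410, 441 and 1109 counts. Both PGC libraries were below the ESC library, as for 44.1% of all genes tested. The ESC level was 3.16 times the PGC mean and the log2 fold change was −1.66 ± 0.25 (SE, edgeR adjusted p = 0.00069). COX18, which inserts a complex IV subunit into the membrane, had 17.0, 13.1 and 27.5 CPM and a log2 fold change of −0.87 ± 0.30 (SE, edgeR adjusted p = 0.038), a call that total counts, DESeq2 and the stricter filter each ended. COX19, another factor of the copper pathway, had 35.7, 36.5 and 22.0 CPM and a log2 fold change of 0.71 ± 0.26 (SE, edgeR adjusted p = 0.051). It lay above the ESC library in both PGC libraries and passed the threshold with total counts and with the stricter filter. COX10, COX14, COX15, COX16 and COX17 had no call, with fitted changes from −0.55 to 0.01.

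The complex II factors lay on the other side of the ESC level from SDHA. SDHAF2, which helps to attach the flavin to SDHA, had 38.1, 31.5 and 23.9 CPM and a log2 fold change of 0.54 ± 0.27 (SE, edgeR adjusted p = 0.13). SDHAF4, which acts on the same subunit, had 16.1, 12.1 and 9.35 CPM and a log2 fold change of 0.60 ± 0.36 (SE, edgeR adjusted p = 0.20). Neither had a call with TMM, and SDHAF2 was called higher with total counts.

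Between the PGC libraries the SD of the log2 difference was 0.29 over members and 0.60 over all genes tested. The members had more counts, with medians of 1436.5 and 1284 in PGC replicates 2 and 3, against 375 and 336 for all genes tested. The part of count depth in the smaller SD was not tested. Of the members, 1 (NDUFAF8) differed by at least 2-fold, as did 8.85% of all genes tested. The 5 members on chromosome Z (NDUFS4, NDUFAF2, COX7C, ATP5A1Z and ATP5ME) were each higher in PGC replicate 3 than in PGC replicate 2, by 0.41 to 0.72 on the log2 scale, with a median of 0.53. Of the other 77 members, 28 were higher in replicate 3, with a median of −0.05.

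None of the 5 members on chromosome Z had a call by edgeR or DESeq2, and 0 had an unadjusted edgeR p under 0.05. Of all 805 genes tested on chromosome Z, edgeR called 37.1% higher and 7.95% lower, and 439 had an unadjusted p under 0.05. The median log2 ratio of the 5 members to ESC was −0.38 for PGC replicate 2 and 0.23 for replicate 3, and −0.093 for the mean of both. Total counts gave 0.22 and TPM gave 0.37, where the median of all genes was 0.34 and 0.49. The other 77 members had a median of −0.79. Over the 805 genes tested on chromosome Z the median was 0.77, with 0.58 and 0.93 in the 2 PGC libraries. Birds are ZW in females and ZZ in males, and chromosome W genes took 0.0765%, 0.0293% and 0.0136% of counts (95% Wilson intervals 0.0753 to 0.0777, 0.0285 to 0.0300 and 0.0131 to 0.0141). HNRNPKL on chromosome W, for one, had 2936, 324 and 0 counts. The part of sex chromosome content in these values was not tested, and it differs between the PGC libraries as well as between the groups.

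**Figure D3:**
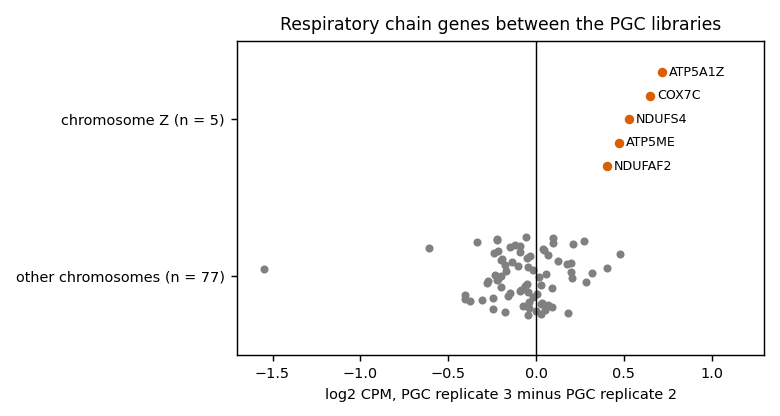
Log2 CPM of PGC replicate 3 minus PGC replicate 2 for the 82 respiratory chain genes, split into 5 on chromosome Z and 77 on other chromosomes. Each point is a gene and vertical position within a row has no meaning. The chromosome Z genes lie between 0.41 and 0.72, and the other genes have a median of −0.05.

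The mitochondrial genome encodes 13 further subunits of complexes I, III, IV and V. All 13 were below the ESC library in both PGC libraries, as were 44.1% of all genes tested. The median log2 ratio of the 13 was −1.75 for PGC replicate 2 and −0.88 for replicate 3. By edgeR 3 (23.1%) were lower (ND1, ND4L and ND6), near the 20.6% of all genes tested. By edgeR with total counts 11 were lower and by DESeq2 12, beside 14.2% and 15.7% of all genes. The stricter filter ended the edgeR calls of ND1, ND4L and ND6. The mitochondrial genome took 4.44%, 6.54% and 10.1% of counts (95% Wilson intervals 4.43 to 4.45, 6.53 to 6.55 and 10.1 to 10.1). Between the PGC libraries these genes differed by a median of 0.85 on the log2 scale, against −0.05 for the nuclear members.

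Other mitochondrial genes were read from lists of each pathway. Over all genes tested, edgeR called 20.6% lower and 21.2% higher. Of 14 genes of the tricarboxylic acid cycle 12 were matched, of which 9 were lower and 3 had no call, with a median log2 ratio of −1.50. CS, citrate synthase, had 34.9, 43.5 and 201 CPM in PGC replicate 2, PGC replicate 3 and ESC, with a log2 fold change of −2.36 ± 0.24 (SE, edgeR adjusted p = 7.5e-05). SUCLG2, a subunit of succinyl-CoA ligase, had 83.0, 116 and 496 CPM, with a log2 fold change of −2.32 ± 0.27 (SE, edgeR adjusted p = 0.00017). The PGC libraries lay below the ESC library for all 12, as for 44.1% of all genes tested.

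Of 13 carriers and channels 10 were matched, of which 6 were lower and 1 higher, beside 20.6% and 21.2% of all genes tested. SLC25A4 and SLC25A6, which exchange ADP for ATP across the inner membrane, had 20.5, 20.3 and 256 CPM and 235, 403 and 2519 CPM. They changed by −3.65 ± 0.23 (SE, edgeR adjusted p = 5.1e-06) and −2.98 ± 0.38 (SE, edgeR adjusted p = 0.00032). SLC25A13, an aspartate-glutamate carrier, was higher at 502, 484 and 245 CPM, with a log2 fold change of 1.01 ± 0.29 (SE, edgeR adjusted p = 0.018). The 24 import and folding symbols matched 18 genes, with TIMM17A and TIMM17B read as the same gene. Of the 18 genes, 14 were lower and 4 had no call, beside 20.6% lower over all genes tested. With total counts 9 were lower, where 14.2% of all genes tested were lower. HSPD1, the chaperonin of the matrix, and TIMM8A, a chaperone of the intermembrane space, changed by −1.68 ± 0.36 (SE, edgeR adjusted p = 0.0046) and −1.48 ± 0.25 (SE, edgeR adjusted p = 0.0014).

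Of 66 mitochondrial ribosomal protein genes 65 were tested, of which 32 were lower and 33 had no call, with a median of −0.66. With total counts 18 were lower and 2 higher, where 14.2% of all genes tested were lower and 28.7% higher. MRPS6 and MRPL45 changed by −1.57 ± 0.24 (SE, edgeR adjusted p = 0.00091) and −1.48 ± 0.23 (SE, edgeR adjusted p = 0.00092). The 13 coenzyme Q synthesis symbols matched 11 genes, with COQ8A and COQ8B read as the same gene. Of the 11 genes, 3 (27.3%) were lower and 8 had no call, beside 20.6% lower over all genes tested. The median of the coenzyme Q synthesis genes, −0.42, turned to 0.044 under TPM, where the median of all genes was 0.49. COQ7 and PDSS1 changed by −1.38 ± 0.26 (SE, edgeR adjusted p = 0.0025) and −1.30 ± 0.27 (SE, edgeR adjusted p = 0.0043). Of 8 genes for other electron donors 5 were matched and 1 (20%) was lower, near the 20.6% of all genes. It was CHDH, choline dehydrogenase, with a log2 fold change of −0.86 ± 0.26 (SE, edgeR adjusted p = 0.022). Total counts ended that call.

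Of 41 further assembly factors 25 were matched, 2 of which (SDHAF2 and SDHAF4) are among the 82. Of the other 23, 6 (26.1%) were lower and 3 (13.0%) higher, beside 20.6% and 21.2% of all genes tested. With total counts 1 was lower and 5 higher, beside 14.2% and 28.7% of all genes. By DESeq2 2 were lower and 1 higher (15.7% and 16.7% of all genes), and with the stricter filter 1 and 3 (18.2% and 19.0%). UQCC1 and FOXRED1, for complexes III and I, changed by −1.45 ± 0.23 (SE, edgeR adjusted p = 0.0010) and −1.24 ± 0.39 (SE, edgeR adjusted p = 0.028). LYRM2 and LYRM7, for complexes I and III, changed by 1.37 ± 0.45 (SE, edgeR adjusted p = 0.033) and 1.20 ± 0.26 (SE, edgeR adjusted p = 0.0055). DESeq2 ended the calls of FOXRED1 and LYRM2, and total counts and the stricter filter also ended that of FOXRED1. LYRM7 is a chaperone of the Rieske protein, the product of UQCRFS1, and lies on chromosome Z.

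Of 22 regulators of mitochondrial biogenesis 17 were matched. By edgeR 6 (35.3%) were lower and 2 (11.8%) higher, beside 20.6% and 21.2% of all genes tested. By DESeq2 it was 4 and 1, beside 15.7% and 16.7%. TFAM, named after its values were seen, which packages mitochondrial DNA and helps to transcribe it, had 50.7, 54.0 and 188 CPM and a log2 fold change of −1.84 ± 0.22 (SE, edgeR adjusted p = 0.00022). The coactivators PPARGC1B and PPRC1 changed by −2.29 ± 0.47 (SE, edgeR adjusted p = 0.0040) and −1.94 ± 0.29 (SE, edgeR adjusted p = 0.00070). PPARGC1A, a coactivator on the same list, had 10.5, 7.63 and 8.89 CPM and no call (log2 fold change 0.03 ± 0.39, SE, edgeR adjusted p = 0.96). The orphan receptor ESRRG changed by −1.89 (edgeR adjusted p = 0.0014). PPARGC1A and ESRRG were also named after their values were seen. NRF1, a transcription factor of respiratory chain genes, was higher at 25.4, 23.3 and 12.8 CPM, with a log2 fold change of 0.93 ± 0.30 (SE, edgeR adjusted p = 0.030), a call that DESeq2 ended. TFB1M, a methyltransferase of mitochondrial ribosomal RNA, was higher at 84.3, 62.6 and 36.8 CPM (log2 fold change 0.998, edgeR adjusted p = 0.017). The median of the list, −0.33, became 0.14 with TPM, where the median of all genes was 0.49.

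**Figure D4:**
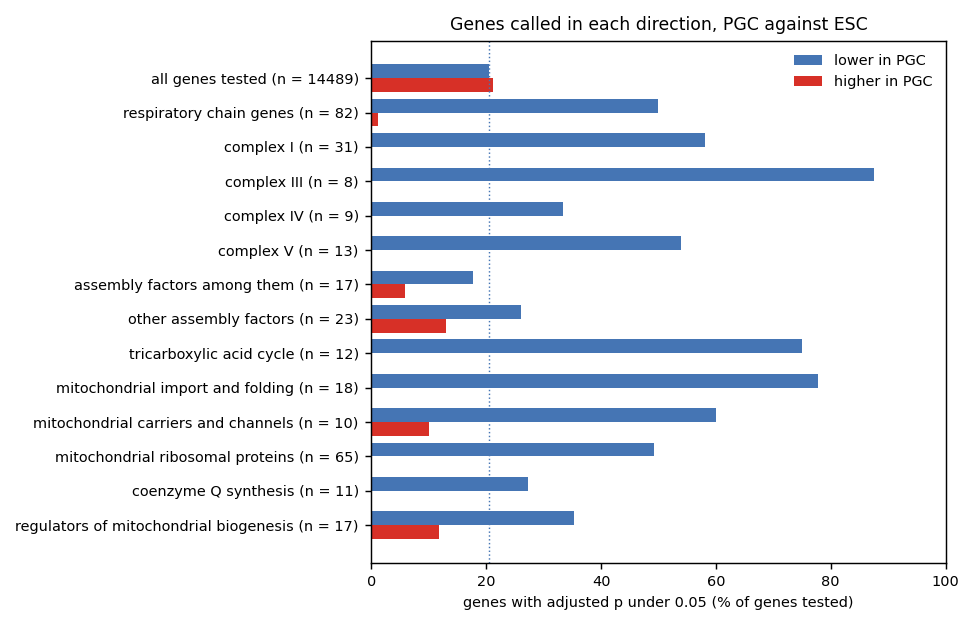
Share of genes called lower (blue) or higher (red) in PGCs by edgeR at adjusted p under 0.05, in percent of the genes tested in each list (n beside the name). The dotted line is the 20.6% of all genes tested that were lower. Complex III, import and folding, and the tricarboxylic acid cycle have the longest blue bars, at 7 of 8, 14 of 18 and 9 of 12. With total counts they are 6, 9 and 8, and the assembly factor lists have 3 of 17 and 5 of 23 higher and 1 and 1 lower, where 28.7% of all genes are higher and 14.2% lower.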

How the data were processed

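The authors aligned paired-end reads to Ensembl gene transcripts of galGal5 with TopHat and Bowtie 2 after TRIzol extraction, and counted them per gene with featureCounts. The strand setting is not given in the sources used here. The deposited count table holds raw counts per gene, in whole numbers, beside exon coordinates and gene length. The authors' second deposited table, used here for gene symbols alone, holds a normalized signal per library, log2 fold changes and p-values from DESeq2. In all, 4 columns of per-sample values match no sample label and were not used. The study used several providers, instruments and read lengths, and which library had which read length is not given in the sources used here. The submitters' processing notes also name bcl2fastq 1.8.4 and MultiQC 1.7.

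A gene was kept when any of the 3 libraries had 10 counts or more for it (14489 genes). The comparison was fitted with edgeR 4.0.16 in R 4.3.3 (TMM factors 1.13, 1.02 and 0.864, quasi-likelihood test, Benjamini-Hochberg adjustment), without covariates, and the fit was tested on simulated data. The simulated counts took their spread from this same fit, so they cannot show whether the single ESC library varies like the PGC libraries. The SE is the size of the fitted log2 fold change divided by the square root of the test's F statistic. It includes no measured spread between ESC libraries. Log2 CPM used a prior count of 2, and TPM were computed from counts and gene length. DESeq2 1.42.0 was an alternative test. Other scalings, filters, thresholds and prior counts were tried, and each PGC replicate was left out. Members were named where called and at least 2-fold in both PGC libraries (up to 15 per direction), highest in TPM in their complex, core subunits of complex I or II, cytochrome c, on chromosome Z, of an isoform family, or among the 3 furthest apart between PGC libraries. In other lists the 2 largest calls per direction were named. Further genes were named after their values were seen. The members and lists were chosen with earlier results of these data known. By name, 68 members matched the RefSeq symbol in the GRCg7b gene table and 9 matched a synonym. Values of 1 member are not reported here.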

Additional observations from a re-analysis of the deposited data

How the results depend on the processing

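No paired analysis was possible because the groups share only 1 replicate number. The edgeR and DESeq2 counts have no values without a replicate, since no residual degree of freedom is left. Of the 82 members, 41 were lower in PGCs with TMM, DESeq2 size factors, the mitochondrial genome left out or no filter, 35 with at least 10 counts in all 3 libraries, 33 by DESeq2, 26 with total counts and 25 at adjusted p under 0.01. The lower genes under these scalings, filters and DESeq2 were all among the 41. Of all genes tested, 18.2% were lower with at least 10 counts in all 3 libraries, 15.7% by DESeq2 and 14.2% with total counts. No share of all genes is given for adjusted p under 0.01 or for the 2-fold and 1.5-fold counts below, so those counts have no background. Higher members numbered 3 with total counts and 2 with the filter on all 3 libraries, where 28.7% and 19.0% of all genes were higher. A 2-fold decrease in both PGC libraries was seen for 5 members with total counts, 3 with TPM and 45 at 1.5-fold, and a 2-fold increase for 2 with TPM and 2 at 1.5-fold. Without either PGC replicate the 2-fold lower count ranged from 25 to 27. With total counts the median log2 ratio was −0.39 over members, −0.48 for complex I, −0.63 for II, −0.83 for III, −1.14 for cytochrome c, −0.19 for IV, −0.70 for V and 0.053 for assembly factors, and with TPM it was −0.24, −0.33, −0.48, −0.68, −0.99, −0.038, −0.55 and 0.20. These shifts follow from the scaling, which moves all genes alike. With the filter on all 3 libraries the median was −0.62 over members, −1.08 for complex III and −0.44 for complex IV, and it was −0.79 without the members on chromosome Z. Without either PGC replicate it ranged from −0.82 to −0.68 for complex I, −1.16 to −1.09 for III, −0.60 to −0.53 for IV and −0.53 to −0.17 for assembly factors. Among the members that the naming rule chose, NDUFV1 at −0.53 with total counts (adjusted p = 0.12 by edgeR) was the 1 whose call ended under the other scalings, filters and DESeq2. At adjusted p under 0.01, the edgeR calls of NDUFS1 (adjusted p = 0.013) and NDUFV1 (adjusted p = 0.014) ended as well. Among the libraries analysed here the ESC side has no replicate, and at 5 to 20 counts NDUFAF8 could not be measured well.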
